A study of Mus musculus with 9 samples.

Results

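Fatty acid oxidation genes were followed in single nuclei of mouse kidney after ischemia-reperfusion injury (IRI). The list held 34 genes, of which 32 were found in both UMI count tables, among 16939 genes shared by the tables. These 32 comprise 16 mitochondrial members, 15 peroxisomal members and Acsl1, the long-chain acyl-CoA synthetase that activates fatty acids for either organelle. Etfb, the beta subunit of the electron transfer flavoprotein, had no row in either table and is not analysed here. Hacl1, a lyase of peroxisomal alpha-oxidation, had a row in the IRI table alone and entered no comparison.

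Mitochondrial beta-oxidation shortens long-, medium- and short-chain fatty acids. The carnitine shuttle carries the acyl chains across the membranes, and each round removes an acetyl unit through a dehydrogenase, a hydratase, a hydroxyacyl-CoA dehydrogenase and a thiolase. Peroxisomes run a parallel cycle that starts with an oxidase and handles very-long-chain, branched-chain and bile acid side chains, whose shortened products leave as carnitine esters. Proximal tubule (PT) epithelium has a high demand for ATP, rich mitochondria and many peroxisomes, and fatty acids are known as its main fuel.

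The study isolated GFP-labelled nuclei from kidneys of male mice aged 11 to 19 weeks and counted UMIs (unique molecular identifiers, a count of captured RNA molecules) in each nucleus. Bilateral IRI of 18 min preceded harvest by 7 days in 2 mice and by 28 days in 3, all of the line Krt20T2A-CE; INTACTnuGFP/+. This line was given 0.05 mg/g tamoxifen, and its nuclear GFP marks cells that had turned on Krt20, a marker of injured tubule. The 4 control mice carried Six2TGC; Rosa26rtTA; pTRE-H2BeGFP, received doxycycline food at 625 mg/kg, and had H2B-GFP in the nephron lineage. Control 1 had no surgery and controls 2, 3 and 4 had sham surgery. Genotype, labelling drug and sort therefore differ between IRI and control mice together with the injury, and their parts in any comparison with controls cannot be told apart. The comparison of day 28 with day 7 is free of that difference. Serum creatinine 48 h after surgery was 0.255 and 0.133 mg/dL in the day 7 mice and 0.488, 0.208 and 0.228 mg/dL in the day 28 mice.

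The tables held 27738 nuclei, 14622 from IRI mice and 13116 from controls, with 1832635 to 14620821 UMIs per library. Clustering was rebuilt without the members among its genes, and clusters were named from marker genes as "PT-like", "TAL-like" (thick ascending limb) and so on. This gave 22883 PT-like and 1343 TAL-like nuclei. PT-like clusters with a higher score for injury markers than for PT markers were called injured-state and the others uninjured-state. The uninjured-state share of PT-like nuclei was 11.8% and 11.2% at day 7 and 27.0%, 9.23% and 16.9% at day 28, against 99.8% to 100.0% in controls. The phosphate transporter Slc34a1, a defining PT marker, stood at 536 to 564 CPM (UMIs of a gene per 1000000 counted) in PT-like sums at day 7 and at 440 to 1141 CPM at day 28, against 3826 to 5074 CPM in controls. Malat1, a nuclear RNA, took 6.79% to 10.4% of PT-like UMIs at day 7 and 16.4% to 18.0% at day 28, against 19.4% to 24.1% in controls. Cell barcodes of the controls and of day 28 mouse 1 shared their starts, and those of the other 4 IRI libraries shared mostly different ones. The sets are called v2 and v3 here, names inferred from overlap of barcode starts between libraries and not taken from sample labels. Between libraries, 132 barcodes were shared, at most 26 by any pair.

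Values below are UMIs summed over the nuclei of a class in each library and scaled to CPM with TMM factors. They are shares of a library's RNA and not amounts per cell. Because genes of different length and transcript structure yield UMIs differently, levels are compared across libraries and not between genes. Changes are log2 fold changes with standard errors from edgeR's quasi-likelihood test, adjusted over all genes tested by Benjamini-Hochberg, and a change was called at an adjusted p below 0.05. Each library is a separate mouse, and p-values measure the spread between these few mice.

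In PT-like sums, most members of both organelles were lower after IRI. At day 7, 11 of 16 mitochondrial members and 13 of 15 peroxisomal members fell, and so did Acsl1, while 24.8% of the 14264 genes tested fell. At day 28, 14 mitochondrial and 13 peroxisomal members fell, against 21.1% of all genes tested. No member rose at either time, while 26.0% of all genes tested rose at day 7 and 23.9% at day 28. The median log2 change over mitochondrial members was −1.36 at day 7 and −1.13 at day 28. Over peroxisomal members it was −2.06 at day 7 and −1.49 at day 28, while the median over all genes tested was 0.005 at day 7 and 0.034 at day 28. Both days were compared with the same 4 controls, so their results are not independent.

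The summed level of the 15 peroxisomal members was 1381 and 1600 CPM at day 7 and 1862, 1418 and 1321 CPM at day 28, against 4301, 3904, 4467 and 4314 CPM in controls. The 16 mitochondrial members together stood at 559 and 619 CPM at day 7 and 581, 595 and 576 CPM at day 28, against 1144, 1274, 1482 and 1320 CPM in controls. For either organelle, every IRI library lay below every control. Gene by gene, both day 7 libraries lay below all controls for 13 mitochondrial and 13 peroxisomal members and for Acsl1, where 31.8% of all genes tested did so. The 3 day 28 libraries lay below all controls for 14 mitochondrial and 12 peroxisomal members, where 21.1% of all genes tested did so.

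**Figure D1:**
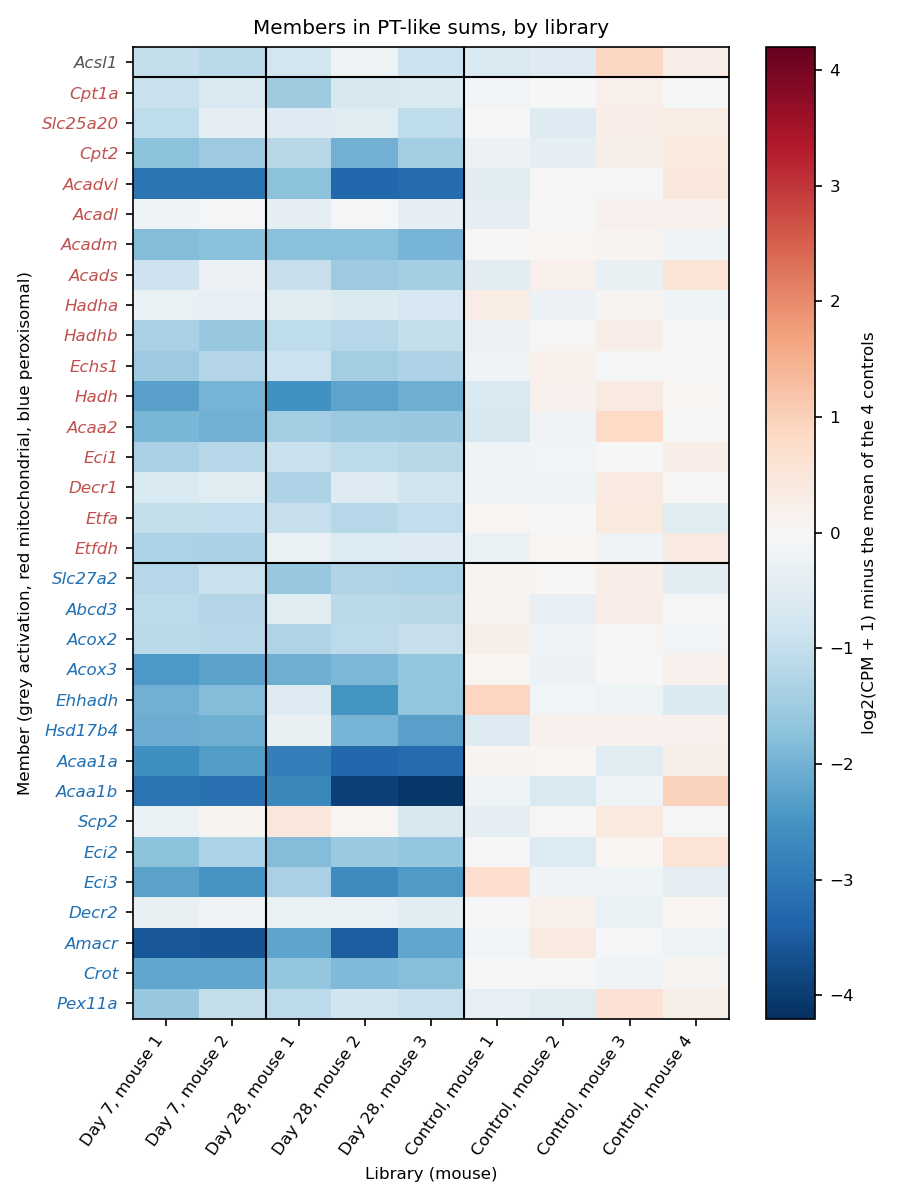
Level of each member in PT-like sums of each library, as log2(CPM + 1) minus the mean of the 4 controls on that scale. Rows are genes grouped by organelle, columns are mice, and blue is lower than the control mean. The blue blocks cover most rows in the 5 IRI columns, with Scp2, Decr2 and Acadl near the control level.

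Long-chain fatty acids enter mitochondria through the carnitine shuttle. Cpt1a, the controlled entry step of the outer membrane, had 77.2 and 93.6 CPM at day 7 and 51.5, 92.3 and 94.1 CPM at day 28, against 135 to 172 CPM in the 4 controls. It fell at both times, by 0.80 ± 0.26 on the log2 scale at day 7 (adjusted p = 0.024) and by 0.89 ± 0.23 at day 28 (adjusted p = 0.0077). Its day 7 call was lost without either day 7 mouse. Cpt2, its partner of the inner membrane, fell more in size, with log2 changes of −1.70 ± 0.32 at day 7 and −1.62 ± 0.28 at day 28. For the carrier between them, Slc25a20, IRI and control libraries overlapped at both times, at 25.1 and 39.7 CPM at day 7 and 24.8 to 37.5 CPM at day 28, against 35.9 to 66.8 CPM in controls. Slc25a20 was not called at day 7 (adjusted p = 0.057) and was called at day 28 (log2 change −0.74 ± 0.27, adjusted p = 0.042), a call lost without any 1 of controls 1, 3 and 4, of the day 7 mice or of day 28 mice 2 and 3.

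The acyl-CoA dehydrogenases open each round of the cycle and differ in the chain length they prefer. Acadvl, the very-long-chain enzyme, had 6.02 and 5.96 CPM at day 7 and 16.52, 4.87 and 5.19 CPM at day 28, against 41.6, 59.9, 54.3 and 79.9 CPM in controls. All 5 IRI libraries were below all controls, with day 28 mouse 1 the highest of the 5. The log2 change was −3.28 ± 0.48 at day 7 (9.72-fold lower, adjusted p = 0.00018) and −2.90 ± 0.41 at day 28 (7.44-fold lower, adjusted p = 0.00016). Acadvl overlaps Dvl2 on the other strand, and no source used here gives the strand setting of the counting, so reads of the pair cannot be told apart. Of the 32 members, 16 overlap a gene on the other strand and 9 overlap one on the same strand, so this limit is not particular to Acadvl. Acadm, the medium-chain enzyme, had 56.3 and 60.1 CPM at day 7 and 59.3, 59.6 and 51.7 CPM at day 28, against 200.4, 214.0, 222 and 182 CPM in controls. Its libraries were tightly grouped on both sides of a wide gap, with log2 changes of −1.81 ± 0.21 at day 7 (adjusted p = 3.5e-05) and −1.85 ± 0.18 at day 28 (adjusted p = 1.1e-05). Acadl, the long-chain enzyme, overlapped between the groups, at 78.1 and 83.2 CPM at day 7 and 66.1 to 83.2 CPM at day 28, against 66.9 to 100.0 CPM in controls, and was not called at either time (adjusted p = 0.62 and 0.26). The short-chain enzyme Acads was not called at day 7 (log2 change −0.58 ± 0.33, adjusted p = 0.16) and fell at day 28 (log2 change −1.42 ± 0.31, adjusted p = 0.0029).

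After the dehydrogenases come hydration, a further oxidation and thiolysis. Hadh, the short-chain hydroxyacyl-CoA dehydrogenase, had 22.3 and 28.1 CPM at day 7 and 18.5, 23.0 and 26.5 CPM at day 28, against 70.7, 127, 145 and 119 CPM in controls. No IRI library reached the lowest control, control 1. The log2 change was −2.20 ± 0.31 at day 7 (adjusted p = 0.00016) and −2.33 ± 0.27 at day 28 (adjusted p = 3.9e-05). Acaa2, the mitochondrial thiolase, had 7.05 and 6.58 CPM at day 7 and 10.2, 9.46 and 9.26 CPM at day 28, against 18.2, 26.9, 53.5 and 29.3 CPM in controls. The groups did not overlap. Its log2 change was −2.24 ± 0.40 at day 7 (adjusted p = 0.00069) and −1.75 ± 0.34 at day 28 (adjusted p = 0.0014). The short-chain hydratase Echs1 fell as well, with log2 changes of −1.44 ± 0.25 at day 7 and −1.27 ± 0.22 at day 28.

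Hadha and Hadhb encode the alpha and beta subunits of the trifunctional protein, which carries out these same steps on long chains at the inner membrane. The genes lie head to head on chromosome 5, and their annotated starts in GRCm38 are separated by 85 bases. That stretch is printed as RefSeq gives it for GRCm38.p6, chr5:30155163-30155247, plus strand, with Hadha to its left on the minus strand and Hadhb to its right on the plus strand. It is shown because both subunit genes start at its ends, and 69.4% of its bases are G or C.
between Hadha and Hadhb: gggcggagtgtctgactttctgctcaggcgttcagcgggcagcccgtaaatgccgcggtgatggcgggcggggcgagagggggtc
Hadhb had 17.4 and 14.5 CPM at day 7 and 21.4, 19.4 and 22.2 CPM at day 28, against 38.5, 47.2, 55.1 and 43.7 CPM in controls. It fell by 1.53 ± 0.24 on the log2 scale at day 7 (adjusted p = 0.00029) and by 1.14 ± 0.21 at day 28 (adjusted p = 0.00085). Hadha had 55.1 and 52.0 CPM at day 7 and 46.2, 43.7 and 40.4 CPM at day 28, against 83.4, 55.9, 71.6 and 59.3 CPM in controls. The day 7 libraries of Hadha lay just under its lowest controls and it was not called there (log2 change −0.34 ± 0.22, adjusted p = 0.22), while at day 28 it fell by 0.64 ± 0.20 (adjusted p = 0.02), a call lost without control 1, day 28 mouse 2 or day 28 mouse 3. The difference between the changes of the subunits was not tested.

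Unsaturated chains need auxiliary enzymes, and the electrons of the dehydrogenases leave through the electron transfer flavoprotein. The isomerase Eci1 fell at both times, with log2 changes of −1.32 ± 0.23 at day 7 and −1.11 ± 0.20 at day 28. The dienoyl-CoA reductase Decr1 was not called at day 7 (adjusted p = 0.07) and fell by 0.88 ± 0.23 at day 28. Etfa, the alpha subunit of the flavoprotein, fell by 1.08 ± 0.26 at day 7 (not called without day 7 mouse 2) and by 1.12 ± 0.22 at day 28. Etfdh, which passes those electrons to ubiquinone, had 28.5 and 27.6 CPM at day 7 and 59.8, 48.5 and 50.4 CPM at day 28, against 60.3, 76.6, 66.1 and 93.6 CPM in controls. The 3 groups did not overlap, and day 28 lay between day 7 and the controls. Etfdh fell at day 7 (log2 change −1.39 ± 0.24, adjusted p = 0.00061) and was not called at day 28 (log2 change −0.49 ± 0.21, adjusted p = 0.071).

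Acsl1 fell at day 7 (log2 change −1.22 ± 0.41, adjusted p = 0.025) and was not called at day 28 (log2 change −0.73 ± 0.35, adjusted p = 0.1). It had 60.2 and 55.2 CPM at day 7 and 71.4, 106 and 64.8 CPM at day 28, against 78.3, 84.8, 227 and 149 CPM in the widely spread controls. The day 7 libraries lay below all controls and the day 28 libraries overlapped them. The day 7 call of Acsl1 was lost without either day 7 mouse.

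The peroxisomal members are given in the order of the pathway, beginning with entry. Slc27a2, a very-long-chain acyl-CoA synthetase, had 565 and 689 CPM at day 7 and 437, 543 and 523 CPM at day 28, against 1403, 1343, 1601 and 961 CPM in controls. It alone held 41.8% of the peroxisomal members' UMIs at day 7 and 36.5% at day 28, against 33.4% in controls, so the peroxisomal sums above lean on it. Its log2 change was −1.08 ± 0.26 at day 7 (adjusted p = 0.0044) and −1.41 ± 0.23 at day 28 (adjusted p = 0.00037), and it was not called at day 7 without day 7 mouse 1. Abcd3, an ABC transporter of the peroxisomal membrane, fell by 1.18 ± 0.27 at day 7 and by 0.93 ± 0.23 at day 28.

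Acyl-CoA oxidases open the peroxisomal cycle. Acox3 had 32.2 and 36.5 CPM at day 7 and 42.3, 47.2 and 56.3 CPM at day 28, against 188, 149, 174 and 203 CPM in controls. It acts on branched chains, and it fell by 2.38 ± 0.24 at day 7 (adjusted p = 1.3e-05) and by 1.87 ± 0.20 at day 28 (adjusted p = 2.1e-05). Acox2, the other branched-chain oxidase listed, stood at 23.3 to 28.5 CPM in all 5 IRI libraries and fell about as much on both days, by 1.20 ± 0.22 at day 7 and by 1.14 ± 0.19 at day 28.

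The bifunctional enzymes carry out hydration and the oxidation after it. Ehhadh, the L-form, had 56.6 and 65.2 CPM at day 7 and 162, 40.2 and 74.1 CPM at day 28, against 439, 215, 204 and 155 CPM in controls. Hsd17b4, the D-form, had 74.2 and 75.7 CPM at day 7 and 254, 81.7 and 64.6 CPM at day 28, against 218, 359, 357 and 363 CPM in controls. For both genes, day 28 mouse 1 reached into the control range while the other 4 IRI libraries lay below it. At day 7, Ehhadh fell by 2.06 ± 0.54 (adjusted p = 0.0072, not called without day 7 mouse 1) and Hsd17b4 by 2.11 ± 0.49 (adjusted p = 0.0039). At day 28, the log2 change of Ehhadh was −1.49 ± 0.45 (adjusted p = 0.017) with all 3 mice and −2.16 (adjusted p = 0.00078) without mouse 1. That of Hsd17b4 was −1.30 ± 0.41 (adjusted p = 0.021) with all 3 mice and −2.14 (adjusted p = 2.8e-05) without mouse 1. Day 28 mouse 1 is the only IRI library with v2 barcodes, as in the controls, and with the barcode set as a term neither gene was called at day 28 (log2 changes of −0.65 for Ehhadh and −0.36 for Hsd17b4). Both genes lost their day 28 call without day 28 mouse 2 and without mouse 3. Without control 1, Ehhadh was not called at day 28 either (log2 change −1.05, adjusted p = 0.063), nor was Hsd17b4 without control 2, 3 or 4.

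Thiolases end the cycle. Acaa1a and Acaa1b are near-identical genes on chromosome 9, and reads that fit both cannot be assigned with certainty, so each value is uncertain. Acaa1a had 24.4 and 28.7 CPM at day 7 and 19.4, 14.1 and 14.8 CPM at day 28, against 161, 159, 109 and 177 CPM in controls. Acaa1b had 59.7 and 56.9 CPM at day 7 and 77.3, 32.5 and 29.1 CPM at day 28, against 446, 325, 458 and 1006 CPM in controls. For both thiolases the groups were far apart. The log2 change of Acaa1a was −2.51 ± 0.27 at day 7 (adjusted p = 2.3e-05) and −3.25 ± 0.25 at day 28 (adjusted p = 1.5e-06). That of Acaa1b was −3.26 ± 0.53 at day 7 (adjusted p = 0.0004) and −3.63 ± 0.46 at day 28 (adjusted p = 7.1e-05), and without control 4, its highest library, it was −2.88 at day 7 and −3.17 at day 28. Scp2, a sterol carrier protein whose longer form is a thiolase, had 234 and 308 CPM at day 7 and 394, 303 and 178 CPM at day 28, against 214, 293, 374 and 273 CPM in controls. The groups overlapped fully and Scp2 was not called (log2 change −0.09 ± 0.31 at day 7 and 0.01 ± 0.28 at day 28).

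Auxiliary enzymes prepare branched and unsaturated chains. Amacr, the racemase of branched-chain and bile acid intermediates, had 15.4 and 14.7 CPM at day 7 and 40.8, 16.6 and 41.7 CPM at day 28, against 177, 252, 188 and 165 CPM in controls. At 13.0-fold lower (log2 change −3.70 ± 0.40, adjusted p = 2.1e-05), its change was the largest of the 32 members at day 7. At day 28 its log2 change was −2.59 ± 0.32 (adjusted p = 5.6e-05). The isomerases Eci2 and Eci3 neighbour each other on chromosome 13. Eci3 had 27.6 and 23.3 CPM at day 7 and 52.0, 20.97 and 25.2 CPM at day 28, against 224, 121, 120 and 105 CPM in controls, with control 1 well above the other 3. Its log2 change was −2.48 ± 0.42 at day 7 (adjusted p = 0.00052) and −2.17 ± 0.36 at day 28 (adjusted p = 0.00047). Eci2 fell by 1.59 ± 0.30 at day 7 and by 1.72 ± 0.26 at day 28. The reductase Decr2 was low throughout, at 13.9 to 18.0 CPM in IRI libraries against 16.4 to 23.5 CPM in controls, and was not called (adjusted p = 0.45 and 0.19).

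Export and division close the list. Crot, the carnitine octanoyltransferase that lets shortened chains leave, had 52.7 and 52.1 CPM at day 7 and 77.8, 66.6 and 69.3 CPM at day 28, against 237, 249, 218 and 261 CPM in controls. Its replicates were tight in each group, and its log2 change was −2.20 ± 0.21 at day 7 (adjusted p = 9.3e-06) and −1.76 ± 0.18 at day 28 (adjusted p = 1.3e-05). Pex11a, a membrane protein of peroxisome division, fell by 1.41 ± 0.34 at day 7 (not called without day 7 mouse 1) and by 1.05 ± 0.30 at day 28.

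**Figure D2:**
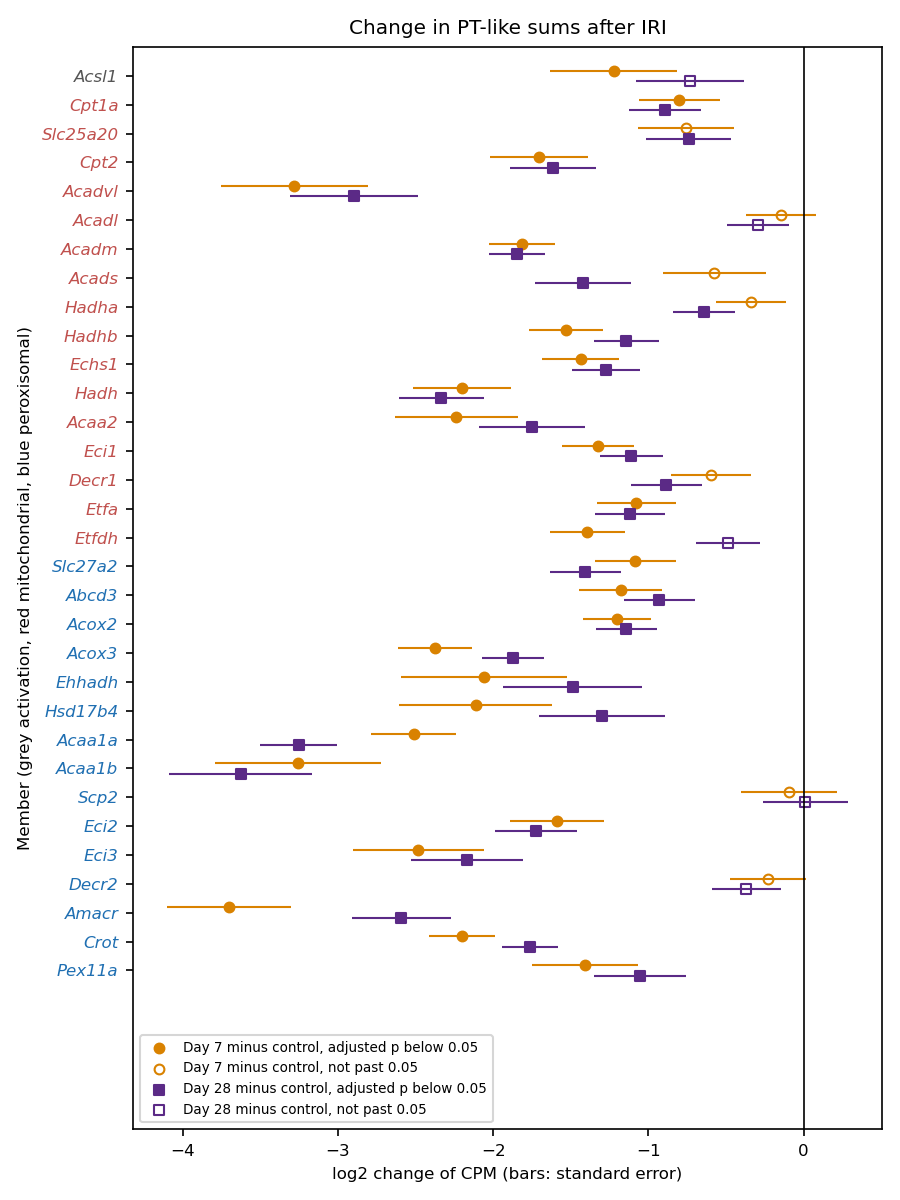
Log2 fold change of each member in PT-like sums, at day 7 and at day 28, each minus control, with standard errors. Filled points passed an adjusted p of 0.05. Acadvl, Amacr and the Acaa1 thiolases lie farthest below 0, and Scp2 and Decr2 lie close to it.

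The barcode set moved with these results. With it as a term, estimated through day 28 mouse 1 alone, 4 mitochondrial members (Cpt1a, Acadm, Hadhb, Hadh) and 6 peroxisomal members (Acox2, Acox3, Acaa1a, Eci2, Amacr, Crot) fell at day 7, when 5.5% of all genes did. At day 28 the counts with the term were 10 mitochondrial and 9 peroxisomal, when 8.88% of all genes fell. Within v2 libraries, day 28 mouse 1 against the 4 controls, 5 mitochondrial members (Cpt1a, Acadvl, Acadm, Hadh, Decr1) and 8 peroxisomal members (Slc27a2, Acox2, Acox3, Acaa1a, Acaa1b, Eci2, Amacr, Crot) passed the test with lower values, when 5.97% of all genes did. The IRI side of that comparison is 1 library, assumed to vary as the controls do. No comparison within v3 libraries could be made with controls, and day 7 has no v2 library. Genomic span moved with the change too, since the median log2 change of all genes in the shortest of 5 equal bins by span was −1.08 at day 7 and −0.58 at day 28, and in the longest bin 0.47 at day 7 and 0.30 at day 28. Members fell in every bin but the longest, which held only Scp2. At day 7, 3 of 5 members fell in the shortest bin, near the 47.1% of all genes that did so there. The others were 6 of 6 in bin 2 by length (27.1% of all genes), 9 of 13 in bin 3 (19.6%) and 7 of 7 in bin 4 (14.9%).

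Day 28 was then set against day 7, within the same mouse line and labelling. No member passed the test in edgeR, where 5.64% of all genes tested did, and 5 members had an unadjusted p below 0.05. These were Etfdh (log2 change 0.91 ± 0.25, adjusted p = 0.052), Amacr (1.11 ± 0.37, adjusted p = 0.1), Acaa1a (−0.74 ± 0.26, adjusted p = 0.13), Acads (−0.85 ± 0.35, adjusted p = 0.19) and Acox3 (0.51 ± 0.23, adjusted p = 0.23). DESeq2 called Etfdh and Amacr, and the share of all genes it called is not given here. The median log2 change was −0.01 over mitochondrial members and 0.25 over peroxisomal members, beside −0.04 over all genes. Within the 4 libraries of v3 barcodes, Etfdh (log2 change 0.87) and Acox3 (0.64) rose at day 28, and Acaa1a (−0.82) and Acaa1b (−0.86) fell. The share of all genes that passed within these 4 libraries is not given here, so these calls have no background beside them.

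PT-like sums mix states, and fewer uninjured-state nuclei and less RNA per nucleus cannot be told apart in them. The states were therefore summed apart within each of the 5 IRI libraries and compared in pairs. States are clusters of the same nuclei, so a gene that follows the cluster axis differs between them by construction, even though the members took no part in the clustering. In injured-state nuclei, 14 of 15 peroxisomal members, 10 of 16 mitochondrial members and Acsl1 were lower, where 19.8% of all genes tested were. The calls of Acsl1 and Eci1 were lost without day 28 mouse 1 or either day 7 mouse. That of Eci1 was also lost with DESeq2 and with no filter on low counts. Decr1 lost its call without day 28 mouse 2, and Hsd17b4 without day 7 mouse 2. The median log2 difference, injured minus uninjured, was −1.36 over peroxisomal and −0.62 over mitochondrial members, beside 0.01 over all genes.

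Eci3 had 13.3, 15.0, 14.1, 9.68 and 9.29 CPM in injured-state nuclei, against 112, 80.2, 165, 134 and 106 CPM in uninjured-state nuclei of the same mice, in the order day 7 mice 1 and 2 and day 28 mice 1, 2 and 3. Amacr had 9.83, 10.2, 10.2, 14.3 and 14.3 CPM in injured-state nuclei, against 48.8, 46.0, 132, 46.2 and 180 CPM in uninjured-state nuclei. Acox2 had 18.4, 17.3, 4.71, 15.0 and 18.3 CPM in injured-state nuclei, against 68.8, 75.7, 78.0, 140 and 86.8 CPM in uninjured-state nuclei. For all 3 genes every injured-state sum lay below every uninjured-state sum. The log2 differences were −3.23 ± 0.19 for Eci3 (adjusted p = 1.1e-06), −2.63 ± 0.27 for Amacr (adjusted p = 3.1e-05) and −2.50 ± 0.23 for Acox2 (adjusted p = 1.5e-05). Acaa1b (−2.32 ± 0.24), Acox3 (−1.87 ± 0.19), Ehhadh (−1.74 ± 0.28) and Crot (−1.55 ± 0.19) followed in size.

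Among mitochondrial members, Acadm (−1.42 ± 0.21), Acadvl (−1.30 ± 0.26), Acaa2 (−1.15 ± 0.25) and Hadh (−1.02 ± 0.13) were the most reduced in injured-state nuclei. Hadha and Hadhb were not called between the states (log2 differences −0.04 ± 0.14 and 0.03 ± 0.29), nor were Acadl, Etfdh and Cpt2 (−0.09 ± 0.10, −0.10 ± 0.13 and −0.27 ± 0.18). With coarser clusters (Leiden resolution 1), Cpt2 was called lower in edgeR (log2 difference −0.56 ± 0.19, adjusted p = 0.032). Scp2, which did not pass the test between IRI and control PT-like sums, was lower in injured-state nuclei by 0.78 ± 0.14 (adjusted p = 0.00097). Decr2 was not called here either. Acaa1a, at 13.3 to 28.6 CPM in injured-state and 20.4 to 38.8 CPM in uninjured-state nuclei, was low in both states of IRI mice and differed between them by −0.55 ± 0.18 (adjusted p = 0.033), a call lost without any 1 of the IRI mice but day 28 mouse 1.

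**Figure D3:**
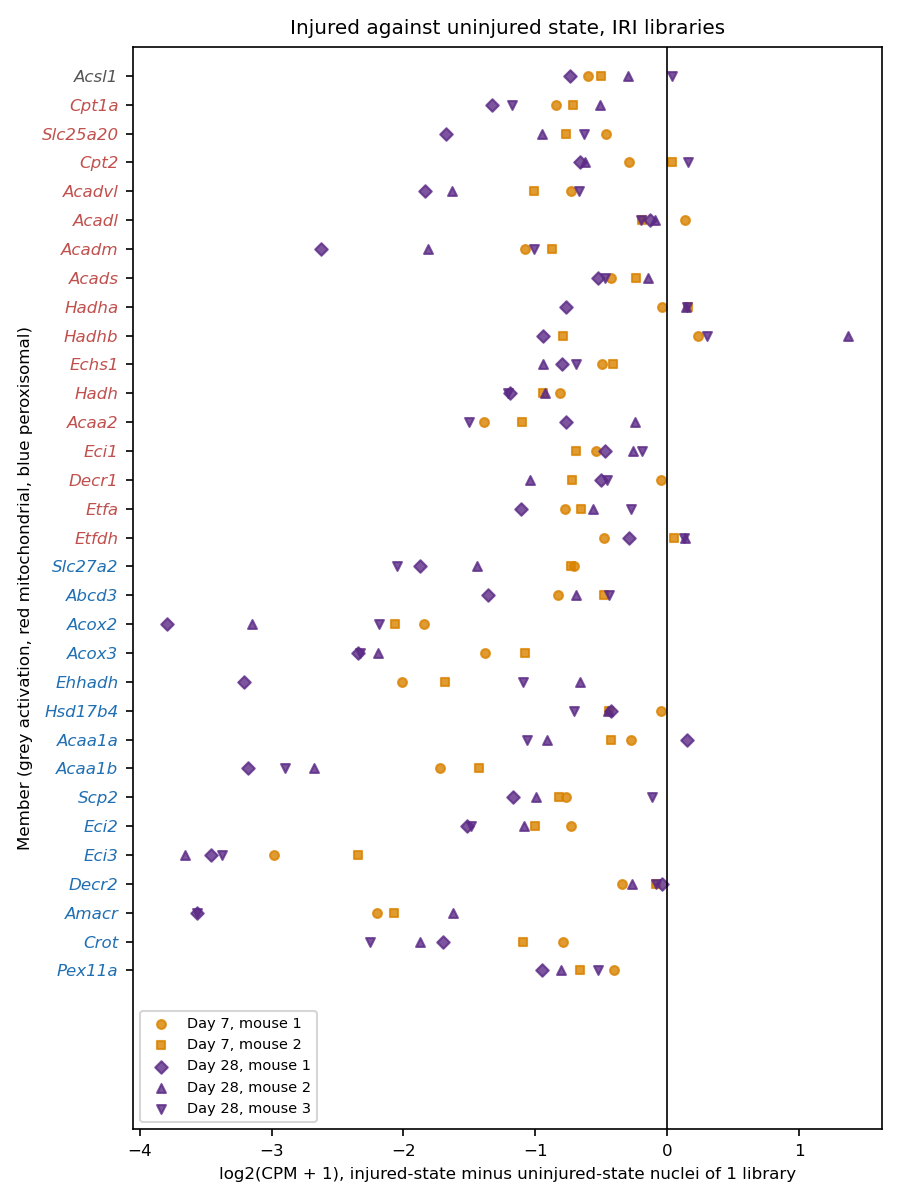
Difference between states in each IRI library, injured minus uninjured, on the log2(CPM + 1) scale. Each point is a mouse and rows are genes grouped by organelle. Eci3, Amacr, Acox2 and Acaa1b lie far below 0 in all 5 mice, and Hadha and Acadl scatter around it.

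The uninjured-state nuclei of IRI mice, which came from the Krt20-labelled sort, were compared with uninjured-state nuclei of controls. At day 28, 9 mitochondrial and 3 peroxisomal members fell, where 12.0% of all genes tested did, with median log2 changes of −0.71 and −0.43. At day 7, 9 mitochondrial and 8 peroxisomal members fell, where 19.2% of all genes tested did, with medians of −1.04 and −0.998. Different clusters hold most of this class on the 2 sides. Of the uninjured-state IRI nuclei, 1247 (79.1%) sat in 3 clusters that held 0 of the 10841 uninjured-state control nuclei. Those 3 were led by Hnf4aos and Slc5a12, by Cyp7b1 and Bcat1, and by Cyp7b1 with the injury genes Cd44 and Havcr1, the last having 2.46 times the median UMIs of its libraries. That last cluster, of 325 nuclei, scored high for both injury and PT markers. Without it, 5 mitochondrial and 2 peroxisomal members fell at day 28 and 6 and 6 at day 7. Shares of all genes without it are not given here, so these counts have no background beside them. The sides also differed in segment, since 283 of 725 uninjured-state nuclei at day 7 and 418 of 852 at day 28 were S3-like (last PT segment), against 1168 of 10841 in controls. Within S3-like nuclei the plain CPM sum of the peroxisomal members was 2122 to 2634 at day 7 and 2597 to 4122 at day 28, against 4876 to 6629 in controls. Within S1-S2-like nuclei it was 2544 to 3092 at day 7 and 2998 to 3452 at day 28, against 3277 to 4173 in controls. In S3-like nuclei the groups were therefore farther apart than in the pooled class. The cluster with Cd44 and Havcr1 counted as S3-like and held 115 of 144 and 111 of 139 S3-like nuclei of the day 7 mice. In the day 28 mice it held 19 of 220, 49 of 142 and 31 of 56. Its part in the S3-like sums was not tested.

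Acaa1a had 26.5 and 35.1 CPM in uninjured-state nuclei at day 7 and 18.0, 23.2 and 25.6 CPM at day 28, against 164, 163, 108 and 187 CPM in controls. Its log2 change was −2.34 ± 0.30 at day 7 (adjusted p = 0.00019) and −2.78 ± 0.27 at day 28 (adjusted p = 5.7e-05). Day 28 mouse 1 was the lowest of all, and Acaa1a was the only member called within v2 libraries (log2 change −3.11, with 1 library on the IRI side) and, at day 28, with the barcode set as a term (−3.09). With that term at day 7, Acox3, Acaa1a and Crot were called, and no mitochondrial member was called at either time. Acadvl had 8.84 and 10.6 CPM at day 7 and 34.3, 12.9 and 7.58 CPM at day 28, against 42.3, 61.4, 53.9 and 84.5 CPM in controls, with log2 changes of −2.63 ± 0.49 (adjusted p = 0.0018) and −1.84 ± 0.42 (adjusted p = 0.0083). Acaa1b fell by 2.01 ± 0.40 at day 28 (adjusted p = 0.0041). Amacr had 44.2 and 41.6 CPM at day 7, against 181, 258, 186 and 175 CPM in controls, and fell by 2.22 ± 0.44 (adjusted p = 0.0025). At day 28 Amacr had 116, 40.3 and 159 CPM and was not called (adjusted p = 0.072). Several peroxisomal members that were among the most reduced in injured-state nuclei were not called in uninjured-state nuclei at either time, among them Eci3 (log2 change −0.73 ± 0.33 at day 7 and −0.30 ± 0.28 at day 28), Ehhadh (−0.80 ± 0.62 and −0.36 ± 0.53) and Acox2 (0.15 ± 0.26 and 0.62 ± 0.23). These 3 genes were higher in S3-like than in S1-S2-like nuclei of controls, and the share of S3-like nuclei, given above, moved with these pooled changes. The day 28 counts turned on single mice, since 2 mitochondrial members fell without day 28 mouse 2 or mouse 3, and 11 fell without mouse 1. At day 7 they were 3 and 5 (mitochondrial and peroxisomal) without mouse 1 and 4 and 5 without mouse 2. No share over all genes is given for these counts or for the calls with the barcode term.

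**Figure D4:**
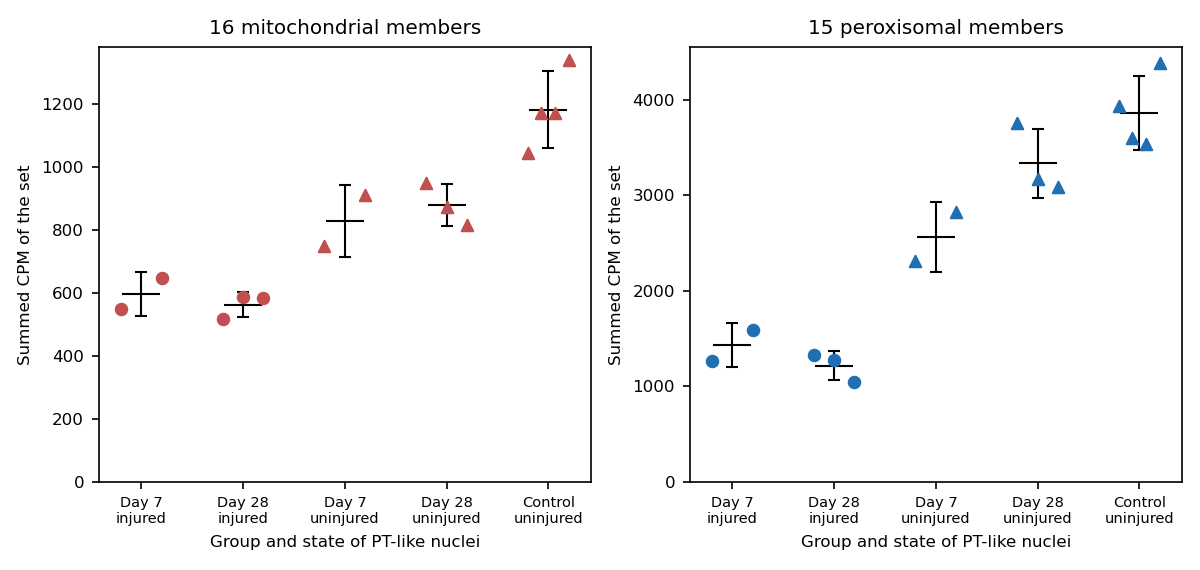
Summed CPM, without TMM factors, of the 16 mitochondrial and the 15 peroxisomal members in injured-state and uninjured-state PT-like nuclei, by library, with bars for the mean and SD of each group. Injured-state sums are the lowest for both organelles. The uninjured-state sums of IRI mice lie below all controls for the mitochondrial members, while for the peroxisomal members day 28 mouse 1 lies within the control range.

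Detection in single nuclei was also lowest in the injured state. After thinning each nucleus to 1000 UMIs, 61.0% to 72.4% of injured-state nuclei held a UMI of any peroxisomal member, against 83.0% to 95.3% of uninjured-state nuclei in IRI mice and 94.6% to 96.2% in controls. Without thinning these shares were 74.9% to 94.2% in injured-state nuclei, against 94.5% to 99.4% in uninjured-state nuclei of IRI mice and 91.8% to 97.8% in controls. Endothelium-like nuclei of the cluster without PT markers held one in 17.6% to 41.9% of thinned nuclei, at median depths of 942 to 1280 UMIs, beside 1225 to 4411 UMIs in injured-state nuclei. Every injured-state share for peroxisomal members lay above these endothelium-like shares. For mitochondrial members the thinned shares overlapped, at 36.9% to 46.9% in injured-state nuclei and 17.5% to 41.9% in endothelium-like nuclei. Stroma-like nuclei of IRI mice held a peroxisomal UMI in 27.0% to 51.9% of thinned nuclei, and those of control 1 (23 nuclei) in 82.6%.

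The tubule types of the nephron were compared in the controls, between PT-like and TAL-like nuclei. A TAL-like cluster of 346 nuclei also carried PT markers, and without it the summed PT markers in TAL-like nuclei were at 7.66% to 10.9% of their PT-like level in controls. The values here leave that cluster out, which left control 3 with too few TAL-like nuclei. Of the peroxisomal members, 13 of 15 were higher in PT-like than in TAL-like nuclei, where 18.1% of all genes tested were, with a median log2 difference of 2.14. Slc27a2 had 1476, 1433 and 1056 CPM in PT-like nuclei, against 133, 117 and 27.0 CPM in TAL-like nuclei, a log2 difference of 3.75 ± 0.29 (adjusted p = 2.7e-35, from a fit in which each gene's spread was drawn almost fully to the trend over genes). Ehhadh (3.56 ± 0.37), Scp2 (2.95 ± 0.34) and Eci3 (2.93 ± 0.40) followed. Pex11a and Decr2 were not called (adjusted p = 0.12 and 0.72). Mitochondrial members went both ways between the tubule types, with a median of 0.20, beside 0.11 over all genes. Acadm (0.88 ± 0.28), Hadh (1.43 ± 0.37) and Decr1 (1.13 ± 0.43) were higher in PT-like nuclei. No member of the 16 was called lower, where 13.2% of all genes tested were, with log2 differences of −0.95 ± 0.43 for Acaa2 (adjusted p = 0.077), −0.81 ± 0.35 for Hadhb (adjusted p = 0.062) and −0.66 ± 0.31 for Hadha (adjusted p = 0.088). Acsl1 had 82.3, 90.5 and 164 CPM in PT-like nuclei, against 271, 176 and 122 CPM in TAL-like nuclei, and was lower by 1.02 ± 0.26 on the log2 scale (adjusted p = 0.00053). With the mixed cluster kept, 13 peroxisomal members were again higher, with a median of 0.80, where 16.2% of all genes tested were higher. Hadha (−0.68 ± 0.17) and Hadhb (−0.69 ± 0.18), about as large as without it and with smaller errors, then passed the test as lower in PT-like nuclei, where 15.9% of all genes tested were.

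Within the proximal tubule of controls, S3-like nuclei, from its last segment, were set against S1-S2-like nuclei. Of the peroxisomal members 8 were higher in S3-like nuclei, where 9.59% of all genes tested were, and 2 were lower, where 9.83% of all genes were. Acox2 had 216, 175, 105 and 155 CPM in S3-like nuclei, against 37.8, 39.2, 43.4 and 33.2 CPM in S1-S2-like nuclei (log2 difference 1.98 ± 0.17, adjusted p = 9.1e-08). Crot had 527, 541, 349 and 539 CPM in S3-like nuclei, against 171, 211, 170 and 204 CPM in S1-S2-like nuclei (1.35 ± 0.12, adjusted p = 7e-08). In all 4 controls both genes were higher in S3-like nuclei. Ehhadh (1.16 ± 0.14), Eci3 (1.03 ± 0.13), Slc27a2 (0.83 ± 0.10), Amacr (0.78 ± 0.12), Abcd3 (0.40 ± 0.12) and Eci2 (0.39 ± 0.12) were also higher, while Acaa1a (−0.63 ± 0.14) and Hsd17b4 (−0.38 ± 0.11) were lower. The calls of Abcd3, Eci2 and Hsd17b4 were lost without control 1 or control 2, and that of Hsd17b4 also without control 4. Of the mitochondrial members, Acadm was higher in S3-like nuclei (1.23 ± 0.16) and Acaa2 was lower (−0.89 ± 0.24). Acsl1 had 20.6, 37.7, 128 and 41.8 CPM in S3-like nuclei, against 81.9, 82.7, 223 and 162 CPM in S1-S2-like nuclei (−1.23 ± 0.18, adjusted p = 5e-05).

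**Figure D5:**
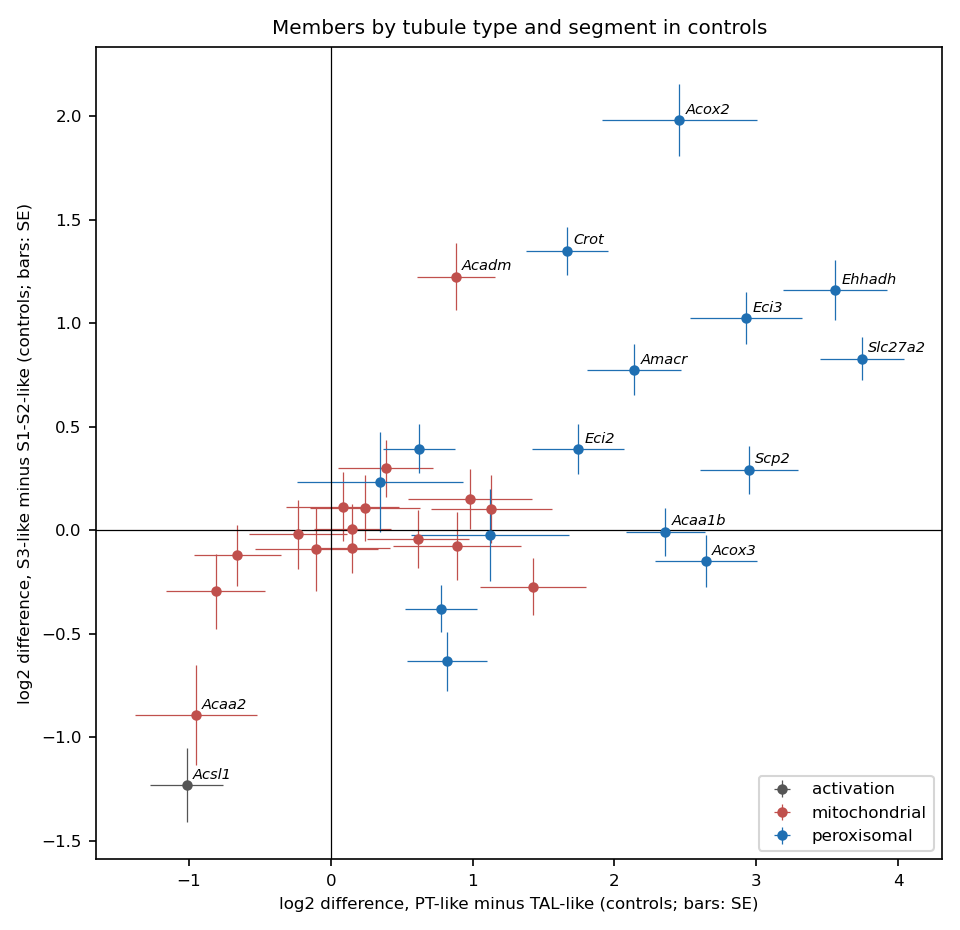
Members by tubule type in control libraries, with the log2 difference between PT-like and TAL-like nuclei (TAL-like without the mixed cluster) on the horizontal axis and between S3-like and S1-S2-like nuclei on the vertical axis, both with standard errors. Peroxisomal members spread to the right and upward, while mitochondrial members lie on both sides of 0 on the horizontal axis, from Acaa2 (−0.95) to Hadh (1.43).

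TAL-like nuclei after IRI were few, 63 at day 7 and 345 at day 28 in libraries with at least 50, so 1 UMI weighs several CPM there. Day 7 mouse 2 fell short of 50 and did not enter. With all TAL-like clusters, 4 of 13 mitochondrial and 10 of 12 peroxisomal members tested fell after IRI (both days together against controls), where 14.1% of all genes tested did. The largest changes were those of Ehhadh (−5.33 ± 1.10), Hadh (−5.31 ± 0.98) and Eci3 (−5.10 ± 0.96). The mixed cluster held 334 control nuclei and 12 IRI nuclei. Without it, 2 of 11 mitochondrial members (Acadvl, Acadm) and 2 of 9 peroxisomal members (Acaa1a, Acaa1b) fell, where 5.3% of all genes tested did, and Ehhadh and Eci3 were too low to be tested. Among the members that lost their call, Amacr had −3.93 ± 1.25 (adjusted p = 0.064), Hadh −4.28 ± 1.61 (adjusted p = 0.12) and Hsd17b4 −1.24 ± 0.41 (adjusted p = 0.079), while Slc27a2 had −1.57 ± 0.53 without the cluster and −3.69 ± 0.65 with it. The PT marker Slc34a1 moved with these changes, at 21.5 CPM at day 7 and 16.9 to 32.3 CPM at day 28 in TAL-like nuclei without the cluster, against 315 to 645 CPM in controls, and its part in them was not tested. Acaa1a then had 14.3 CPM at day 7 and 19.1, 23.7 and 13.9 CPM at day 28, against 106, 189 and 142 CPM in controls. The groups did not overlap, and the log2 change was −2.97 ± 0.59 (adjusted p = 0.0035). Cpt1a had 164 CPM at day 7 and 229, 257 and 153 CPM at day 28, against 157, 189 and 223 CPM in controls, and its change in TAL-like nuclei was 0.06 ± 0.34. The difference between the changes in PT-like and in TAL-like nuclei was tested as an interaction. Without the mixed cluster it passed for Cpt1a alone (log2 −1.15 ± 0.36, adjusted p = 0.028), where 5.14% of all genes passed. With that cluster, Cpt1a (−1.06 ± 0.27) and Acsl1 (−1.28 ± 0.26) had lower and Slc27a2 (2.21 ± 0.33), Ehhadh (5.08 ± 1.52) and Scp2 (1.14 ± 0.37) higher differences, where 8.38% of all genes passed. Of these calls, that of Cpt1a was lost without day 28 mouse 2 and that of Ehhadh without control 3. The call of Scp2 was lost without control 1, 2 or 3 or day 28 mouse 3.

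Other genes of fatty acid handling, 105 in 9 lists, gave a setting for the members in PT-like sums. At day 7, 52 of the 95 tested fell and 10 rose, and at day 28, 50 fell and 6 rose, beside 24.8% of all genes lower and 26.0% higher at day 7 and 21.1% lower and 23.9% higher at day 28. Among other peroxisomal enzymes, 8 of 13 fell at day 7 and 9 at day 28, including Phyh, the hydroxylase of phytanic acid breakdown (−2.54 ± 0.31 and −2.001 ± 0.26), and Hao2 (−2.06 ± 0.27 and −2.14 ± 0.24). Of 13 genes of peroxisome biogenesis tested, 6 fell on each day and none rose. The 7 genes of carnitine supply tested went both ways. At day 7, 4 fell and 3 rose (median log2 change −1.18), and at day 28, 3 fell and 1 rose (median 0.49). Among them Slc22a5, the carnitine transporter, fell by 1.80 ± 0.26 at day 7 and by 1.58 ± 0.22 at day 28.

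Some genes moved the other way. Acsl5, an acyl-CoA synthetase, had 51.7 and 61.8 CPM at day 7 and 32.1, 28.9 and 31.7 CPM at day 28, against 6.67, 5.99, 6.59 and 8.73 CPM in controls. It rose by 3.05 ± 0.22 at day 7 (adjusted p = 1.2e-06) and by 2.17 ± 0.21 at day 28 (adjusted p = 1e-05), opposite in sign to Acsl1. Acsl4, the synthetase with a preference for arachidonate, rose at day 7 (1.90 ± 0.24) and was lower at day 28 than at day 7 (−1.17 ± 0.26, adjusted p = 0.019). Among regulators, 6 of 12 fell at day 7 and 3 rose, and that share of 12 rising is near the share over all genes. Pparg rose (3.05 ± 0.56 at day 7 and 2.49 ± 0.55 at day 28), while Esrra, which activates genes of oxidative metabolism, fell (−1.44 ± 0.26 and −1.64 ± 0.23). Ppargc1a, the coactivator of mitochondrial genes, fell at day 28 by 1.31 ± 0.20. Genes of these lists, unlike the members, were not left out of the clustering, so they could help define the states. Between states of IRI mice, 53 of 88 tested genes of these lists were lower in injured-state nuclei and 5 were higher, beside 19.8% of all genes lower and 19.5% higher. Ppara, the receptor known to drive many of the members in liver, was lower there by 1.68 ± 0.16 (adjusted p = 1.7e-05).

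The promoters of the members were read for sites of these regulators, since PPARs bind direct repeats of AGGTCA with 1 base between them. RefSeq windows in GRCm38.p6, 250 bases before to 50 after the start, were matched for 28 of 32 members. The repeat (AGGTCA, any base, AGGTCA) was searched with up to 2 mismatches and on both strands. It was found in 3 of 14 mitochondrial members (Slc25a20, Echs1, Etfa) and 1 of 13 peroxisomal members (Acox2). Of all 27025 genes with a window, 4.4% held it, as did 3.86% of all 32851 windows. The element TCAAGGTCA, bound by Esrra, was in 0 members, in 0.466% of all genes with a window and in 0.423% of windows. The matches that lay upstream of the start are shown, each on the strand of its gene with the match in capitals, for Echs1 at chr7:140116477-140116519 and for Etfa at chr9:55512293-55512335, both genes on the minus strand. The Echs1 match began 83 bases before the start and the Etfa match 77 bases before it. The Etfa match is the reverse complement of the repeat.
Echs1: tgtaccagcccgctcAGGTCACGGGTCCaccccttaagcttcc
Etfa: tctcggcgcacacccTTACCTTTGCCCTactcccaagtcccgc
These matches are descriptions of letters, and binding was not measured. Echs1 and Etfa fell in PT-like sums on both days, as given above, and most members that fell held no match in the window.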

How the data were processed

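Single-nucleus UMI counts per gene were deposited by the authors as a table of controls and a table of IRI libraries. Per the submitters' processing notes, Cell Ranger, STAR and Seurat and the build mm10 were used. No source used here gives their versions or the strand setting. Each deposited table lists genes seen in at least 3 nuclei, which can leave out low genes. The 16939 genes in both tables were used. Nuclei were clustered with scanpy 1.11.5 on 2000 variable genes without the members (30 components, 20 neighbours, Leiden resolution 2), and clusters were named from marker lists with thresholds from earlier work on these data. This left 33 clusters, 3 of them unnamed. No doublet caller was run. UMIs were summed per library and class (at least 50 nuclei) and tested with edgeR 4.0.16 in R 4.3.3 (TMM, filterByExpr, quasi-likelihood test, Benjamini-Hochberg adjustment). DESeq2 1.42.0 was an alternative. On simulated data with known changes, the test called 74% of 4-fold and 9.1% of 2-fold changes at day 7 against control in PT-like sums. The shares were 78% and 19.6% at day 28 against control, and 63.6% and 7.2% between the days. Between the states they were 96.8% and 74%. Few genes were changed in the simulations (199 of 13970 at day 7), while 24.8% of genes fell and 26.0% rose at day 7 in the data. The adjusted threshold was therefore stricter in the simulations, and these shares are not the sensitivity for the members. A member that was not called is still not shown to be unchanged. The members and all lists were chosen with earlier results of these data known. Values per library are given for the 4 mitochondrial and 4 peroxisomal members with the largest called change per PT-like comparison, and elsewhere for the 3 largest, and for each called member moving against most. Others were named by role or after their values were seen. Of the other lists, up to 3 called genes per list were eligible. Same-numbered libraries come from different mice. The correlation of deviations within the 7 same-number pairs ran from −0.235 to 0.016, so the numbers do not pair the samples. Counting intervals are not given for sums, and floors of 3 counts cover counting error only.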

Additional observations from a re-analysis of the deposited data

Results flagged for a closer look

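Hsd17b4 in control 1 stood far from the other controls in PT-like sums, at 217.5 CPM, the lowest of 4. Eci3 in control 1 stood far above the other 3, at 223.7 CPM. Of the 34 groups of 4 controls tested with Dixon's criterion, 2 met it, and chance gives about 1 in 20. Control 1 is the mouse without surgery, and the part of surgery was not tested. 

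The change after IRI differed between PT-like and TAL-like nuclei by an interaction test for 5 members when all TAL-like clusters were kept. The log2 differences were −1.276 for Acsl1, −1.057 for Cpt1a, 2.207 for Slc27a2, 5.084 for Ehhadh and 1.135 for Scp2. Without the TAL-like cluster that also held PT markers, the difference of Cpt1a passed the test (−1.15) and the other 4 did not. With all TAL-like clusters kept, the call of Cpt1a was lost without day 28 mouse 2.

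Hacl1, which has a row in the IRI table alone, had 17 UMIs in PT-like nuclei, 4 and 0 at day 7 and 0, 9 and 4 at day 28. A count of 0 allows up to 3 UMIs, which is 0.413 CPM in day 7 mouse 2 and 1.64 CPM in day 28 mouse 1, so the libraries at 0 are not shown to lack it. No control value was analysed here.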

How the results depend on the processing

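Of the called changes of members in PT-like sums, 524 of 550 values under other settings were called alike at day 7 and 576 of 621 at day 28, and between the states 310 of 325. None of these reversed. With the barcode set as a term, 4 mitochondrial and 6 peroxisomal members fell at day 7, and within v2 libraries 5 and 8 fell at day 28. In uninjured-state nuclei at day 28, 0 mitochondrial and 1 peroxisomal member fell both with that term and within v2 libraries, 5 mitochondrial members fell without the cluster of high UMIs or at Leiden resolution 1, and 5 peroxisomal members fell with no filter on low counts. At day 7 the term left 0 and 3. In TAL-like nuclei, 2 and 2 fell without the mixed cluster or at resolution 1. From day 7 to day 28, DESeq2 called 1 mitochondrial and 1 peroxisomal member, v3 libraries alone 1 and 3, TMM factors within 5 bins of genomic span 2 mitochondrial members, and leaving out the high-UMI cluster, the low-UMI clusters or nuclei under 1000 UMIs 1 each. For the interaction, 2 mitochondrial members were called without nuclei under 1000 UMIs, and 1 peroxisomal member with DESeq2, 0 without the mixed cluster and 1 at resolution 1. The interaction of Scp2 reversed to −0.017 without the mixed cluster and to −0.003 at resolution 1. Without a low-count filter 5 mitochondrial members differed between PT-like and TAL-like nuclei, and with DESeq2 1 differed between segments. Shares over all genes are given above for only some of these settings, and the other counts have no background beside them. The causes were not tested beyond what each setting changes.

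Leaving out each library in turn gave 9 to 13 mitochondrial and 10 to 13 peroxisomal members lower at day 7 and 12 to 15 and 11 to 13 at day 28. In uninjured-state nuclei the ranges were 2 to 11 and 2 to 5 at day 28 and 3 to 9 and 5 to 9 at day 7. Between the days they were 0 to 1 and 0 to 1, and for the interaction 0 to 1 and 1 to 4. For PT-like against TAL-like nuclei 1 to 4 mitochondrial members were called. With replicate number as a replicate block, 10 mitochondrial and 13 peroxisomal members fell at day 7, 13 and 13 at day 28, and 0 and 0 differed between the days. With the block, Acsl1 and Cpt1a lost their call at day 7 and Slc25a20 at day 28. The day 28 call of Slc25a20 was also lost with no filter on low counts and without nuclei under 1000 UMIs. No share over all genes is given for the counts in this paragraph, so they have no background beside them.

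Members with few UMIs, down to 21 in a PT-like sum (Acaa2), and TAL-like sums of IRI mice have the widest errors.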

Other observations

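Classes other than the tubule types above had at least 50 nuclei in few libraries, and their plain CPM are given as values. In stroma-like nuclei the summed peroxisomal members stood at 607 to 1089 CPM at day 7 and 577 to 965 CPM at day 28, and the mitochondrial members at 500 to 690 CPM and 506 to 790 CPM. Slc34a1, which these nuclei should lack, was at 251 to 253 CPM at day 7 and 101 to 541 CPM at day 28 there, and its part in these sums was not tested. Distal-like nuclei had 621.5 CPM of peroxisomal members at day 7 and 553 to 815 CPM at day 28, against 777 to 912 CPM in controls. Slc34a1 was at 33.2 CPM at day 7 and 14.0 to 48.0 CPM at day 28 there, against 486 to 711 CPM in controls, and its part was not tested.

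Upstream of the start, the 250 bases of mitochondrial members had a median GC content of 59.2% and those of peroxisomal members 60.0%, beside 52.0% over 27025 genes with a window.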
